A study of Mus musculus with 26 samples.

Results

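The genes described here belong to the hyaluronan-based extracellular matrix, and they were followed through immunoprecipitated (IP) and input RNA of the mouse retina and optic nerve. They were the 4 lectican genes Bcan, Ncan, Vcan and Acan, the tenascin genes Tnc and Tnr, the link protein gene Hapln1, the hyaluronan synthase gene Has2 and the heavy chain genes Itih3 and Itih5. They were chosen by symbol, and all 10 were found among the 54532 genes of the count table.

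Hyaluronan is a long sugar chain that synthases spin out through the cell membrane, and it is the scaffold of the loose matrix of nervous tissue. Lecticans are chondroitin sulphate proteoglycans that hold hyaluronan at one end and tenascins at the other, and link proteins clamp the lectican to the chain. Heavy chains of the inter-alpha-trypsin inhibitor family can be coupled to hyaluronan and stabilise it. Astrocytes, oligodendrocyte precursors and neurons all contribute components of this matrix in the brain, and it forms the nets around neurons and the matrix at nodes of Ranvier.

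The study set RNA pulled down from retinal astrocytes against whole retinal RNA and against RNA pulled down from astrocytes at the optic nerve head (ONH), the exit of the ganglion cell axons, and of the myelinated optic nerve proper (ONP). The groups were retina IP with 6 libraries, retina input with 6, ONH IP with 7 and ONP IP with 7. All mice were untreated and labelled day 0, and the labels used here give no strain, genotype, age or sex, no tag or promoter behind the immunoprecipitation, and do not say which libraries come from different animals. The p-values therefore measure how far these libraries vary, which may be technical. The 12 retinal libraries were made in batch 2 together with replicate 7 of ONH IP and replicate 7 of ONP IP, called the bridging libraries here, and batch 1 held the remaining 12 libraries of the nerve.

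Total counts ran from 11164619 to 27431026 per library. Levels are in CPM, that is counts per library size, and a difference is a log2 fold change with its standard error (SE) from edgeR's quasi-likelihood test. A gene is called at an adjusted p under 0.05, adjusted by Benjamini-Hochberg over all genes tested, and the same test stands behind every adjusted p here unless another is named. All 8 astrocyte markers had counts in all 4 groups, with sums of 1070 to 8610 CPM in retina IP, 384 to 1600 CPM in retina input, 5110 to 26900 CPM in ONH IP and 10200 to 33400 CPM in ONP IP. Markers of other cells were present too, and in part at higher sums than the astrocyte list. Sums of 6 Müller glia markers, 1 of them shared with the astrocyte list, exceeded the astrocyte sum in all 6 retina IP libraries. They ran from 4050 to 12900 CPM in retina IP (median 8940), from 1670 to 6230 CPM in retina input (median 2990), from 2750 to 4960 CPM in ONH IP and from 1650 to 3790 CPM in ONP IP. Sums of 8 oligodendrocyte markers were 50.5 to 157 CPM in retina IP and 20.3 to 94.5 CPM in retina input, but 27700 to 72700 CPM in ONH IP and 36000 to 124000 CPM in ONP IP. Sums of 8 ganglion cell markers were 864 to 5030 CPM in retina IP and 3690 to 8870 CPM in retina input, against 20.7 to 241 CPM in ONH IP and 12.7 to 37.6 CPM in ONP IP. Ganglion cell sums exceeded astrocyte sums in retina IP replicates 1, 5 and 6, and oligodendrocyte sums exceeded them in all 14 nerve libraries. Sums of 8 microglia markers had medians of 141 CPM in retina IP, 212 CPM in retina input, 1440 CPM in ONH IP and 2360 CPM in ONP IP. Retina input replicates 1 and 2 stood apart from the other input libraries, with 8.165% and 15.19% mitochondrial counts against 2.792% to 4.009%. The ONH bridging library also held 45600 CPM of rod markers. The part these cells have in the differences below was not tested, and in such bulk RNA fewer cells of a type and less RNA per cell cannot be told apart.

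The IP libraries of the retina and of the optic nerve differed in several of these genes. Itih3 and Itih5 were abundant in both optic nerve regions and at or near 0 in the retina, Vcan was lower in retina IP than in either nerve region, and Tnr and Has2 were lower in retina IP than in ONP IP. Tnc ran the other way, higher in retina IP than in ONP IP and higher in ONH IP than in ONP IP. Against ONH IP, 3 of the 8 members tested were lower in retina IP and 0 higher, where 21.1% of all genes tested were lower and 12.7% higher (33.8% in either direction). Against ONP IP, 5 of 8 were lower and 1 higher, where 19.9% of all genes were lower and 12.9% higher (32.8% in either direction). Both comparisons use the same retinal libraries and are not independent. No retina IP library reached the level of 0.537 CPM that the low-count filter asks for in Itih3 or Has2. Both passed it through optic nerve libraries alone and so had to differ, Has2 through ONP IP alone, which makes these counts a description. Between ONH IP and ONP IP, 1 of 8 was higher in ONH IP and 2 were lower, where 4.43% of all genes were higher and 3.04% lower (7.48% in either direction). One of the 2 lower members is Has2, which no ONH IP library carried past the filter. In retina IP against retina input 0 of 7 members tested were called, as for all genes tested (0%); 2 members, Bcan and Ncan, were higher at an unadjusted p under 0.05, which 22.1% of all genes reached in either direction, and DESeq2 called 1 member, Bcan, higher, where it called 6.38% of all genes higher and 7.27% lower.

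**Figure D1:**
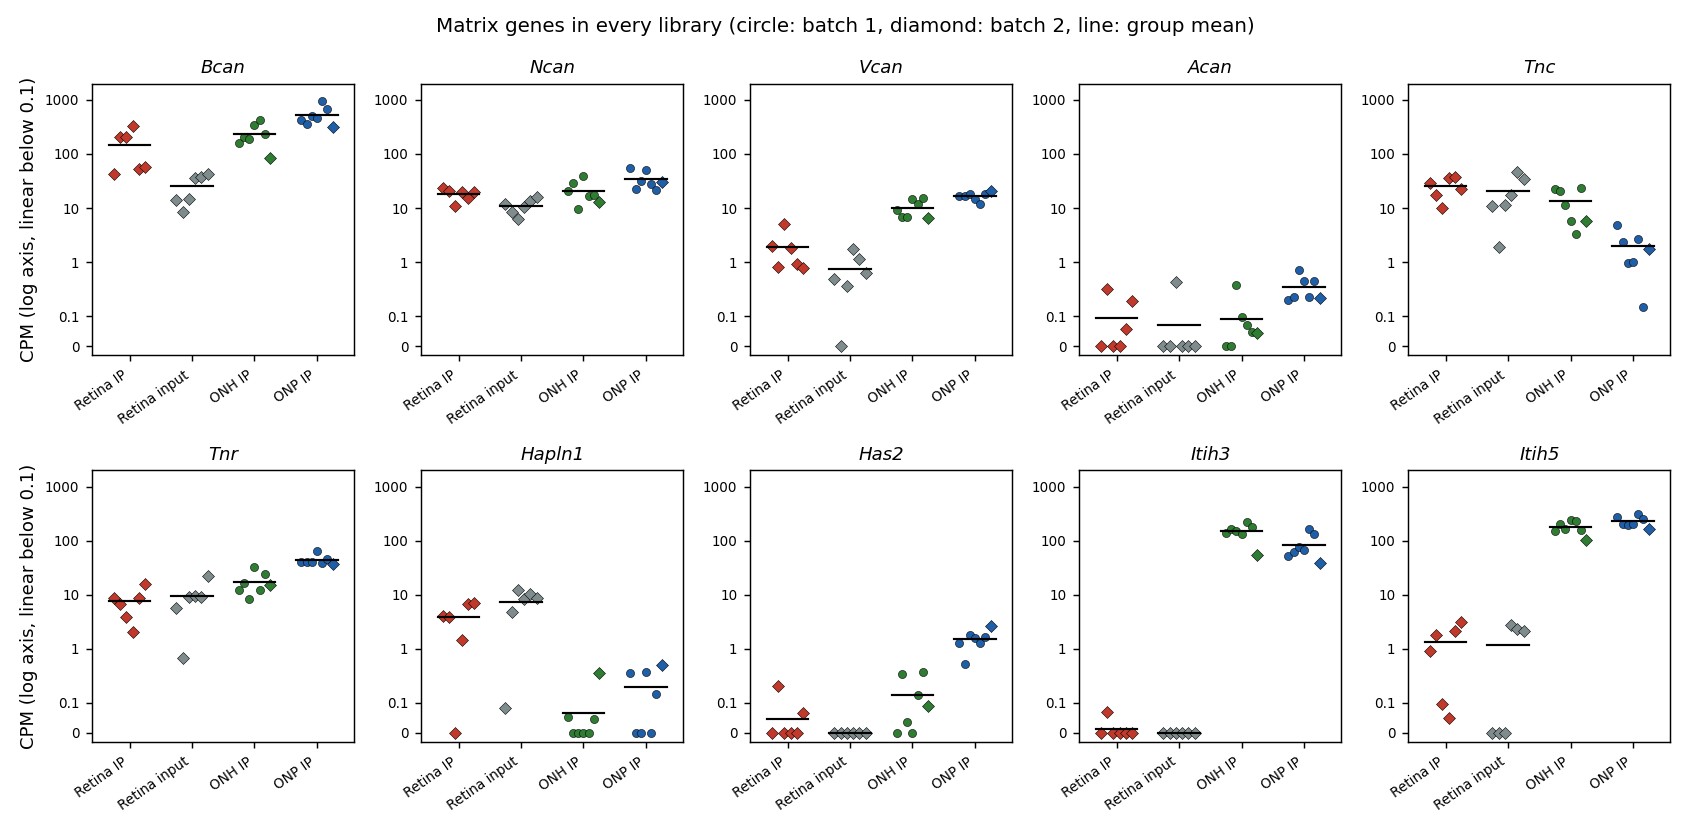
CPM of the 10 genes in each of the 26 libraries, on a log axis that is linear below 0.1 CPM, with retina IP and input on the left and ONH IP and ONP IP on the right. Circles are batch 1 libraries, diamonds batch 2 libraries and lines group means; Itih3 lies between 38.2 and 220 CPM in every optic nerve library and at 0.0698 CPM or less in every retinal one.

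Per kilobase of exon, which allows levels of different genes to be compared, Bcan was the most abundant member in all 4 groups, at 36.5 ± 28.5 CPM per kb in retina IP, 6.29 ± 3.58 in retina input, 57.7 ± 28.7 in ONH IP and 131 ± 56 in ONP IP (SD, n = 6, 6, 7 and 7). In retina IP it was followed by Tnc at 3.27 ± 1.40 and Ncan at 2.56 ± 0.635 CPM per kb, whose ranges overlapped. Hapln1 at 0.652 ± 0.470 and Tnr at 0.592 ± 0.367 CPM per kb overlapped too, and Itih5 at 0.173 and Vcan at 0.131 CPM per kb came next. In ONH IP the heavy chain genes took the places behind Bcan, with Itih3 at 40.9 ± 14 and Itih5 at 22.5 ± 6.05 CPM per kb, whose ranges overlapped with each other and with that of Bcan. In ONP IP their order was the other one, Itih5 at 28.8 ± 6.51 and Itih3 at 23.4 ± 13 CPM per kb, again with overlap, and all Bcan libraries, from 77.7 CPM per kb up, lay above both. Acan, Has2 and Hapln1 were the least abundant in ONH IP, at 0.0122, 0.0332 and 0.0112 CPM per kb.

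Itih3 (ENSMUSG00000006522, mm10 chromosome 14, 30908572 to 30923760) and Itih5 (ENSMUSG00000025780, mm10 chromosome 2, 10153571 to 10256529) encode heavy chains of the inter-alpha-trypsin inhibitor family, which in blood plasma are known as carriers and stabilisers of hyaluronan. Bases upstream of their RefSeq starts are shown because they are the members with the widest gap between retina and nerve, together with those of Tnc, the one member called the other way, and Bcan, the most abundant. The sequences are from RefSeq on GRCm38.p6, 5′ to 3′ on the gene's own strand, and capitals mark matches of the motifs given after them. Each begins 250 bases before the start and stops at the first annotated exon. For Itih3 that leaves the 77 bases farthest from the RefSeq start, and the bases nearer to it are not shown.
Itih3: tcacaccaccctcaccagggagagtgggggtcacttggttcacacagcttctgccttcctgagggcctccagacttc
Itih5: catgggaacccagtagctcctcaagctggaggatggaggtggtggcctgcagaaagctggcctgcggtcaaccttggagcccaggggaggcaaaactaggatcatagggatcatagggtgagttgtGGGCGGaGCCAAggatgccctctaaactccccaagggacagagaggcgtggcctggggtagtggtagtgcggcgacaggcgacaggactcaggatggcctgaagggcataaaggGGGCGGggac
Tnc: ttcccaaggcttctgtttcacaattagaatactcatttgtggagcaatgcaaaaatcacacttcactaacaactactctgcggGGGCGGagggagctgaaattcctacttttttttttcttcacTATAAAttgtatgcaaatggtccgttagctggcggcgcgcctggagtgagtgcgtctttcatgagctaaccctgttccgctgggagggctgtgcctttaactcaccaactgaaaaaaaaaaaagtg
Bcan: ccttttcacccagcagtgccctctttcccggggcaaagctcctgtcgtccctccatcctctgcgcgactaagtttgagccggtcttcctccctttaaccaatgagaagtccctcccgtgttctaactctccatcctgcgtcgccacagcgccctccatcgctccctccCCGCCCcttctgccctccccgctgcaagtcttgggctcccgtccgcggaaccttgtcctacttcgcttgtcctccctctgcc
They lie at chr14:30923761-30923837 on the minus strand, chr2:10153293-10153542 on the plus strand, chr4:64047016-64047265 on the minus strand and chr3:88000357-88000606 on the minus strand. The motifs searched were 6 on both strands, with N for any base, namely the TATA box TATAAA, the GC box GGGCGG, the NFI sequence TTGGC, the SOX-type ACAAAG, the AP-1 site TGANTCA and the STAT site TTCNNNGAA. The Itih3 window of 77 bases held none of them, where 4.13%, 7.93%, 13.6%, 5.36%, 1.95% and 2.23% of 32817 mouse promoters cut to the same far 77 bases held each in that order. The bases nearer the Itih3 start were not searched. The Itih5 window held 2 GC boxes and 1 TTGGC on the reverse strand, the Tnc window 1 GC box and 1 TATA box, and the Bcan window 1 GC box on the reverse strand. At 250 bases, 12.4% of all promoters held TATAAA, 32.7% GGGCGG, 41.5% TTGGC, 16.5% ACAAAG, 6.75% TGANTCA and 7.01% TTCNNNGAA. A match is letters only and not a bound site, and promoters were matched for 9 of the 10 members.

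Itih3 was close to undetected in the retina. The 6 retina IP libraries held 2 counts in all, both in replicate 2, and the 6 input libraries held 0, whereas ONH IP ranged from 54.7 to 220 CPM with a median of 149 (19871 counts) and ONP IP from 38.2 to 167 CPM with a median of 66.5 (11119 counts). The groups did not overlap, and the bridging libraries, made in the same batch as the retinal ones, were the lowest of their groups at 54.7 CPM in ONH IP and 38.2 CPM in ONP IP. Set against those 2 counts, the level per library size was 9370 times higher in ONH IP (95% Poisson interval 2590 to 77400) and 5950 times higher in ONP IP (1650 to 49100), intervals that cover counting error only. Since Itih3 entered the fit through nerve libraries alone, its p-values against retina IP are not given as support. Between ONH IP and ONP IP the log2 fold change was 0.77 (SE 0.254, adjusted p = 0.0685), and the ranges overlapped. Batch 1 alone gave 0.82 with an adjusted p of 0.0485, and over all alternatives it ran from 0.00263 to 0.157.

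Itih5 was low but detected in the retina and abundant in the nerve. Retina IP libraries held 0.926, 1.81, 0.0978, 0.0498, 2.13 and 3.17 CPM in replicates 1 to 6, and input libraries held 0 in replicates 1 to 3 and 2.72, 2.37 and 2.11 CPM in replicates 4 to 6. ONH IP ranged from 105 to 238 CPM with a median of 163, and ONP IP from 164 to 313 CPM with a median of 205. Every nerve library lay above every retinal library. The log2 fold change of retina IP was -6.40 against ONH IP (SE 0.632, adjusted p = 3.59e-07) and -6.77 against ONP IP (SE 0.632, adjusted p = 1.29e-07), with -6.12 (adjusted p = 0.0250) and -6.74 (adjusted p = 0.0115) inside batch 2, where each nerve region is 1 library assumed to vary like the retinal ones. Retina IP and input did not separate (0.21, SE 1.18, adjusted p = 0.952), and the sign turned in 5 alternatives that left out libraries. Nor was a difference between ONH IP and ONP IP called (-0.38, SE 0.403, adjusted p = 0.627).

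The chromosomal neighbours of both genes are heavy chain genes as well, and they were far lower. Itih1 and Itih4 lie 5419 and 6218 bases from Itih3, with 0 coding genes between. Both were at 0 counts in retina IP and in ONP IP, and in ONH IP Itih1 held 15 counts in 2 libraries and Itih4 43 counts in 5. Itih2, 22174 bases from Itih5, was at 0 counts in all retinal libraries, at 3.65 to 15.4 CPM in ONH IP and at 1.5 to 3.13 CPM in 6 ONP IP libraries, with 58.9 CPM in ONP IP replicate 1. With a floor of 3 counts for the 6 retina IP libraries together, Itih2 was at least 316-fold higher in ONH IP and at least 502-fold higher in ONP IP. Replicate 1 held most of the ONP signal, and without it the bound was 97.8-fold. Oligodendrocyte marker sums were higher in every nerve library than in every retinal one, as Itih3 and Itih5 were. So were the astrocyte markers Gja1 (0.413 to 155 against 434 to 1570 CPM) and Aqp4 (9.92 to 166 against 185 to 1580 CPM). The other astrocyte markers overlapped. Medians in ONH IP and ONP IP were 149 and 66.5 CPM for Itih3 and 163 and 205 CPM for Itih5. For the oligodendrocyte sums they were 34600 and 88800 CPM. The part of these cells in the heavy chain levels was not tested.

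**Figure D2:**
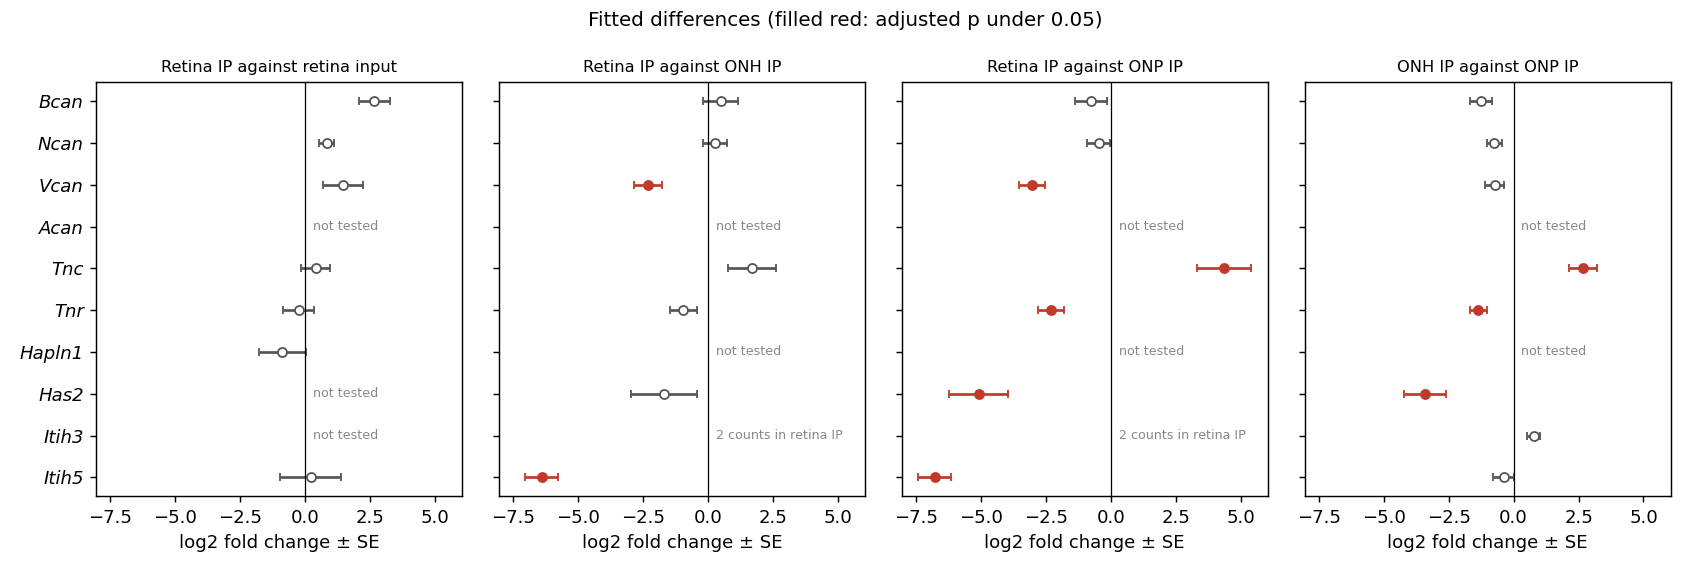
Fitted log2 fold changes with SE bars for each member in the 4 comparisons; positive values are higher in the group named first, filled red points have an adjusted p under 0.05, and members below the low-count filter are marked as not tested. Itih3 against the retina is left out because retina IP held 2 counts; Itih5 lies at -6.40 and -6.77, and Tnc at 4.36 against ONP IP.

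Has2 (ENSMUSG00000022367, mm10 chromosome 15, 56665627 to 56694539) encodes a membrane synthase that makes long hyaluronan chains, and it was measurable in the ONP. Retina IP held 7 counts in 2 of 6 libraries, retina input 0 counts, and ONH IP 18 counts in 5 of 7 libraries with a highest level of 0.370 CPM. ONP IP held 184 counts, with 0.522 to 2.67 CPM and a median of 1.58 CPM in 7 of 7 libraries. All ONP IP libraries lay above all others, and the highest of them was the bridging library. The log2 fold change was -5.09 for retina IP against ONP IP (SE 1.12, adjusted p = 0.00164) and -3.40 for ONH IP against ONP IP (SE 0.809, adjusted p = 0.0160). Because the gene passed the low-count filter through 6 ONP IP libraries and no other, both values are a description and the p-values add no support. Batch 2 alone gave -5.41 with an adjusted p of 0.0797 for the retina, and all alternatives ranged from 0.000263 to 0.0797, while without any one of ONP IP replicates 1, 3, 4, 5, 6 or 7 the gene failed the low-count filter and was not tested. Against ONH IP no difference was called (-1.69, SE 1.27, adjusted p = 0.321), but without retina IP replicate 2, which held most of the retinal counts, the value was -3.43 (adjusted p = 0.0490; 0.049 to 0.459 over all alternatives). The transcript Has2os on the opposite strand overlaps Has2 and held 307 counts over all libraries against 209 for Has2, and whether the counting used strand is not given in the sources used here, so the 2 cannot be told apart with certainty. The synthase gene Has1 ran the other way, with 136 counts in 6 of 6 retina IP libraries and 142 counts in retina input. ONH IP held 8 counts of Has1 and ONP IP 3. Has3 held 15, 15, 3 and 1 counts in the same order. Neither gene was tested between regions.

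Bcan (ENSMUSG00000004892, mm10 chromosome 3, 87987531 to 88000230) encodes brevican, a short brain lectican made by glia. Retina IP held 42.3, 207, 205, 326, 52.4 and 56.5 CPM in replicates 1 to 6, and retina input 14, 8.57, 15, 35.7, 37.7 and 42.2 CPM. Replicates 2, 3 and 4 of retina IP stood well above the other 3, and every IP library lay above every input library (42.3 CPM at the lowest against 42.2 CPM at the highest). The log2 fold change was 2.66 (SE 0.596, adjusted p = 0.0570), and DESeq2 (2.64, adjusted p = 0.000407), a fit of all 26 libraries (2.53, adjusted p = 0.00145) and edgeR without the low-count filter (2.67, adjusted p = 0.0449) did call it, within a range of 0.000407 to 0.172 over all alternatives. Without retina IP replicate 1 or replicate 5 it was called as well (2.86, adjusted p = 0.0322, and 2.84, adjusted p = 0.0395). The same 3 IP libraries had the highest astrocyte marker sums, 6360, 5280 and 8610 CPM against 1070, 1430 and 2070 CPM in replicates 1, 5 and 6. Of the astrocyte markers, Aqp4 did not follow the sum (48.5, 14.6 and 16.2 CPM against 75, 24.7 and 166 CPM). The Müller glia sums split like the astrocyte sums, 10900, 11900 and 12900 CPM against 4420, 4050 and 7010 CPM. Of the Müller markers, Crym went the other way (51.7, 49.9 and 47.6 CPM against 65.5, 69.8 and 151 CPM) and Abca8a overlapped. Sums of 8 mural cell markers were 805, 695 and 834 CPM against 121, 124 and 123 CPM. Nearly all of that was 1 gene, Rgs5, at 797, 693 and 818 CPM against 116, 120 and 113 CPM, while the mural marker Pdgfrb overlapped. Ganglion cell marker sums were the lowest in replicates 2, 3 and 4, at 1930, 1450 and 864 CPM against 5030, 4670 and 4940 CPM. The ganglion cell marker Rbpms overlapped, at 92.3, 70.9 and 49.8 CPM against 54.8, 256 and 239 CPM. What part the split of the marker sums has in the Bcan values was not tested.

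**Figure D3:**
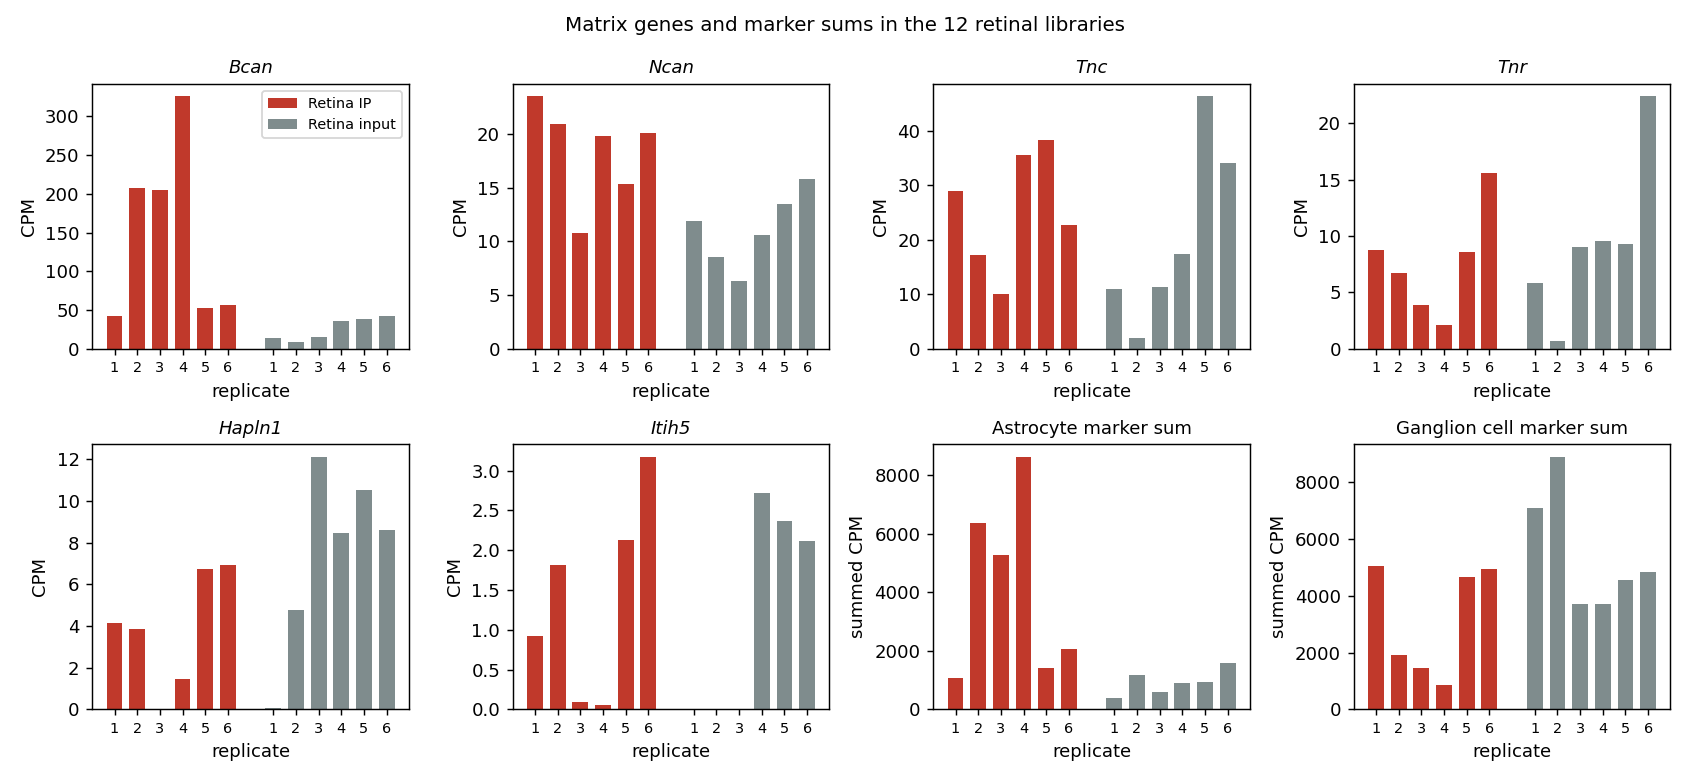
Bars of 6 member genes in CPM and of the summed CPM of 8 astrocyte and 8 ganglion cell markers in each of the 12 retinal libraries, with retina IP on the left and retina input on the right of each panel. Bcan and the astrocyte sum are high in IP replicates 2, 3 and 4, where the ganglion cell sum is low. Tnr and Hapln1 are lower in each of those replicates than in the other IP libraries. Ncan, Tnc and Itih5 overlap.

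In the nerve, Bcan ran from 82.5 to 431 CPM in ONH IP (median 202) and from 316 to 970 CPM in ONP IP (median 462). Retina IP overlapped with ONH IP and, by its highest library alone, with ONP IP. Against ONH IP the log2 fold change was 0.48 (SE 0.676, adjusted p = 0.612) with the batch term but -0.63 without it, and against ONP IP it was -0.76 (SE 0.609, adjusted p = 0.360) with the term and -1.82 without it (adjusted p = 0.0025, range over all alternatives 0.00096 to 0.889), so neither direction was settled. The bridging libraries were the lowest of their groups for Bcan, as for Itih3 and Itih5. They were also the lowest for the astrocyte marker sum, at 5110 CPM in ONH IP and 10200 CPM in ONP IP, and its part in the Bcan values was not tested. ONH IP against ONP IP gave -1.25 (SE 0.408, adjusted p = 0.0673), and batch 1 alone called it (-1.13, adjusted p = 0.0177, range over all alternatives 0.00111 to 0.145).

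Ncan (ENSMUSG00000002341, mm10 chromosome 8, 70093085 to 70120873) encodes neurocan, a lectican of the developing and injured brain. It had 10.8 to 23.5 CPM in retina IP (median 20), 6.34 to 15.8 CPM in retina input (median 11.2), 9.42 to 38.8 CPM in ONH IP (median 17.5) and 21.6 to 55.7 CPM in ONP IP (median 30). The range of retina IP overlapped with each of the others. No comparison called it, with log2 fold changes of 0.82 over input (SE 0.301, adjusted p = 0.130), 0.28 against ONH IP (SE 0.466, adjusted p = 0.675), -0.47 against ONP IP (SE 0.438, adjusted p = 0.446) and, for ONH IP against ONP IP, -0.74 (SE 0.283, adjusted p = 0.115). Without the batch term the sign against ONH IP turned (-0.14), and the difference from ONP IP was called (-0.87, adjusted p = 0.0200, range over all alternatives 0.00485 to 0.909).

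Vcan (ENSMUSG00000021614, mm10 chromosome 13, 89655312 to 89742509) encodes versican, the large lectican of loose connective tissue and, in the brain, of oligodendrocyte precursors. It was low in the retina, at 0.777 to 5.09 CPM in retina IP (median 1.38) and 0 to 1.75 CPM in retina input (median 0.557), against 6.45 to 15.3 CPM in ONH IP (median 9.31) and 12.1 to 21.1 CPM in ONP IP (median 16.8). No retinal library reached the lowest nerve library. Vcan was lower in retina IP by a log2 fold change of -2.31 against ONH IP (SE 0.544, adjusted p = 0.00300) and -3.04 against ONP IP (SE 0.504, adjusted p = 0.000127). The difference from ONH IP did not hold with only the 2 groups compared (-1.71, adjusted p = 0.164), in batch 2 alone (-1.58, adjusted p = 0.421) or without ONP IP replicate 7 (-1.75, adjusted p = 0.0607), over a range of 3.96e-05 to 0.421. For ONP IP, batch 2 alone gave -3.26 with an adjusted p of 0.0520, over a range of 1.68e-06 to 0.0520. Neither retina IP against input (1.45, SE 0.766, adjusted p = 0.286) nor ONH IP against ONP IP (-0.73, SE 0.353, adjusted p = 0.221) was called. A fit of only ONH IP and ONP IP did call the second (-0.72, adjusted p = 0.0417), over a range of 0.0385 to 0.507. Of 10 markers of oligodendrocyte precursors, 7 lay below every nerve library in every retina IP library, as Vcan did, 2 (C1ql1 and Lhfpl3) overlapped, and Pdgfra lay above, at 151 to 1400 CPM in retina IP against 17.3 to 62 CPM in ONH IP and 52.5 to 100 CPM in ONP IP. Among the 7, Cspg4, which encodes NG2, averaged 0.750 ± 0.542 CPM in retina IP, 0.155 ± 0.311 CPM in retina input, 18.0 ± 6.60 CPM in ONH IP and 39.1 ± 7.63 CPM in ONP IP (SD, n = 6, 6, 7 and 7), and Sox10, a transcription factor of the oligodendrocyte lineage, 0.0872, 0.102, 46.6 and 133 CPM in the same order. Summed over all 10 precursor markers, the ranges were 203 to 1430, 158 to 275, 487 to 1180 and 1370 to 2010 CPM, with Olig2 and Gpr17 at 0 in retina input. Most of the retinal sums was Pdgfra, except in retina input replicate 1, where it was 51.1 of 158 CPM. The part of the precursor markers in the Vcan difference was not tested. The antisense gene Gm4117 overlaps Vcan and held 365 counts against 3695.

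Acan (ENSMUSG00000030607, mm10 chromosome 7, 79053483 to 79115099) encodes aggrecan, the lectican of cartilage and of perineuronal nets, and stayed at the limit of detection. It held 13 counts in 3 retina IP libraries, 7 counts in 1 input library, 15 counts in 5 ONH IP libraries and 42 counts in 7 ONP IP libraries, where it ran from 0.200 to 0.723 CPM. It failed the low-count filter in every comparison and was not tested.

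Taken per kilobase, the 4 lecticans summed to 39.2 ± 28.4 CPM per kb in retina IP, 7.89 ± 3.97 in retina input, 61.3 ± 29.4 in ONH IP and 137 ± 55.4 in ONP IP. Brevican made up 88.5 ± 8.68% of that sum in retina IP, 76.6 ± 8.84% in retina input, 93.4 ± 2.61% in ONH IP and 95 ± 2.21% in ONP IP (SD, n = 6, 6, 7 and 7). Neurocan took most of the rest, 11 ± 8.46%, 22.6 ± 9.17%, 5.30 ± 2.37% and 3.96 ± 1.95% in the same order. Versican stayed below 2% in all 26 libraries. The brevican share of retina IP was 94.4, 96.5 and 96.5% in replicates 2, 3 and 4 and 75.4, 85.4 and 82.9% in replicates 1, 5 and 6. The share rises with Bcan itself, and Ncan overlapped between these replicates, so this restates the split in Bcan level.

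Hapln1 (ENSMUSG00000021613, mm10 chromosome 13, 89539796 to 89611652) encodes a link protein that ties aggrecan and other lecticans to hyaluronan. Its counts came almost only from retinal libraries, in input as in IP. Retina IP replicates 1 to 6 held 4.13, 3.84, 0, 1.44, 6.74 and 6.93 CPM, and input replicates 1 to 6 held 0.0826, 4.76, 12.1, 8.47, 10.5 and 8.60 CPM. The groups overlapped, and no difference between them was called (-0.89, SE 0.906, adjusted p = 0.630). ONH IP held 10 counts in 3 libraries, the highest 0.363 CPM in the bridging library, and ONP IP 22 counts in 4 libraries with 0.504 CPM at the highest. Hapln1 failed the filter in the fit of the 20 IP libraries, and without a filter it gave 4.09 against ONH IP (SE 1.6, adjusted p = 0.0866) and 2.02 against ONP IP (SE 1.82, adjusted p = 0.553). Retina IP replicate 3 held 0 counts, and without that library Hapln1 passed the filter and was called higher in retina IP than in ONH IP (4.31, SE 1.31, adjusted p = 0.0153, against 0.083 to 0.444 in the other alternatives that tested it). The pseudogene Gm8546 lies in Hapln1 on the opposite strand and held 206 counts against 1258.

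Each lectican gene lies next to a link protein gene, with 0 coding genes between, at 21519 bases for Bcan and Hapln2, 2222 for Ncan and Hapln4, 43659 for Vcan and Hapln1 and 2 for Acan and Hapln3. The pairs did not share one pattern across tissues. Hapln2, the link protein of nodes of Ranvier, averaged 0.0707 ± 0.114 CPM per kb in retina IP and 0.0696 ± 0.0882 in retina input, against 36.7 ± 18.6 in ONH IP and 82.7 ± 34.7 in ONP IP, so retinal Bcan stood beside almost no Hapln2. Hapln4, a link protein of perineuronal matrix at synapses, averaged 8.87 ± 6.99 CPM per kb in retina IP and 9.99 ± 7.33 in retina input, against 0.0971 ± 0.165 in ONH IP and 0.0494 ± 0.0458 in ONP IP, while Ncan beside it was present in all 4 groups. Vcan and Hapln1 ran in opposite directions, with Hapln1 above Vcan in the means of the retinal groups and below it in those of the nerve groups. Hapln3 was at 0.326 ± 0.314 CPM per kb in retina IP and at 0.685 ± 0.211 in ONP IP, and Acan beside it stayed below 0.1 CPM per kb in every library.

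**Figure D4:**
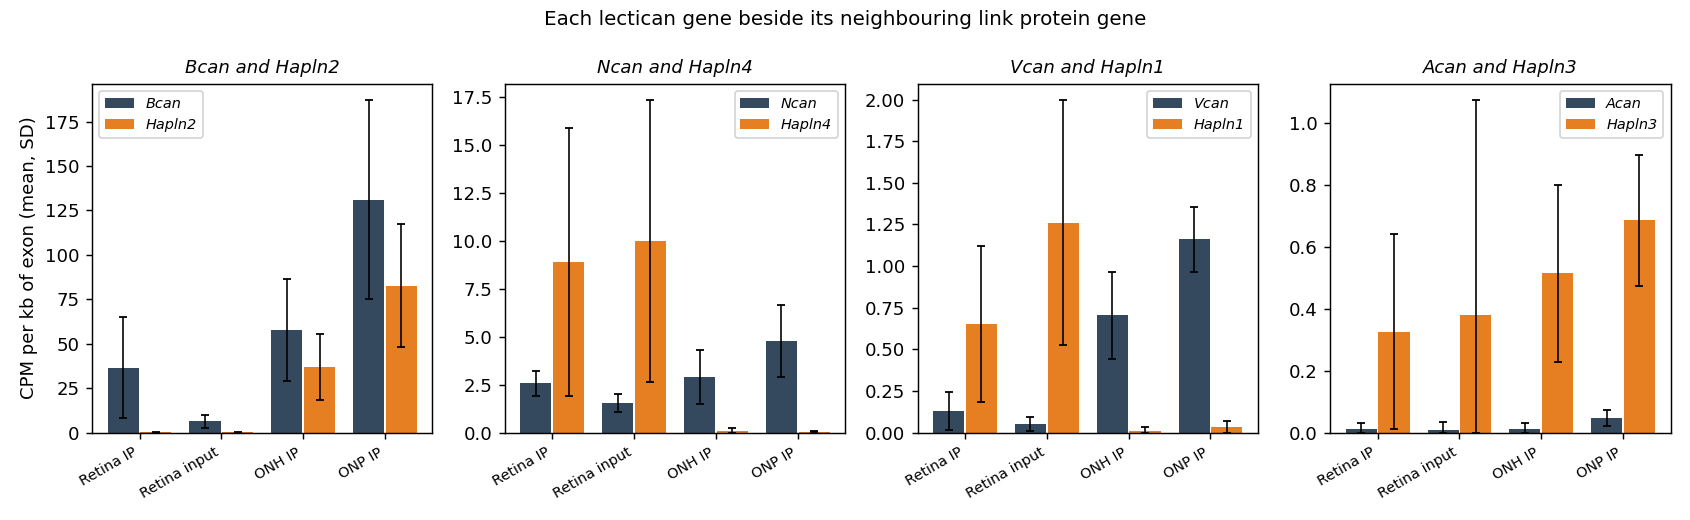
Mean CPM per kb of exon for each lectican gene (dark bars) and its neighbouring link protein gene (orange bars) in the 4 groups, retina IP at the left and ONP IP at the right; error bars are SD over 6, 6, 7 and 7 libraries and are clipped at 0 where they would fall below it. Hapln4 and Hapln1 stand over the retinal groups and Hapln2 over the nerve groups, with vertical scales that differ between panels.

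Tnc (ENSMUSG00000028364, mm10 chromosome 4, 63959785 to 64047015) encodes tenascin C, a hexameric glycoprotein of developing and reactive glia. It had 10 to 38.3 CPM in retina IP (median 25.8), 1.90 to 46.3 CPM in retina input (median 14.4), 3.30 to 23.9 CPM in ONH IP (median 11.5) and 0.146 to 4.95 CPM in ONP IP (median 1.73). Retina IP overlapped with input and with ONH IP, and all its libraries lay above all ONP IP libraries. The log2 fold change was 4.36 for retina IP against ONP IP (SE 1.04, adjusted p = 0.00324) and 2.68 for ONH IP against ONP IP (SE 0.548, adjusted p = 0.00656). Batch 2 alone kept the first (4.06, adjusted p = 0.0307) and batch 1 alone the second (2.82, adjusted p = 0.0116), while a fit of only retina IP and ONP IP gave 3.93 with an adjusted p of 0.0515, over a range of 2.19e-06 to 0.0515. Tnc was not called in retina IP against ONH IP (1.69, SE 0.936, adjusted p = 0.170), nor against input (0.40, SE 0.560, adjusted p = 0.751). The 2 ONH IP libraries with the lowest levels in batch 1, replicates 5 and 4 at 3.30 and 5.84 CPM, lay close to the bridging library at 5.68 CPM. Sums of 8 fibroblast markers were 153 to 1420 CPM in retina IP (Col6a3 at 0), 54.7 to 229 CPM in retina input (Col6a3 at 0), 473 to 1160 CPM in ONH IP and 200 to 1110 CPM in ONP IP. Most of the retinal sums was Pdgfra: the other 7 markers summed to 1.96 to 20.6 CPM in retina IP and 0.453 to 11.3 CPM in retina input, against 455 to 1100 CPM in ONH IP and 148 to 1020 CPM in ONP IP. Their part in the Tnc difference was not tested.

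Tnr (ENSMUSG00000015829, mm10 chromosome 1, 159523769 to 159931729) encodes tenascin R, a trimeric tenascin of nervous tissue made by oligodendrocytes and some neurons. It had 2.09 to 15.6 CPM in retina IP (median 7.66), 0.680 to 22.4 CPM in retina input (median 9.16), 8.51 to 32.2 CPM in ONH IP (median 15.3) and 37.5 to 63.4 CPM in ONP IP (median 40). ONP IP lay above every other library, and the other 3 groups overlapped. Tnr was lower in retina IP than in ONP IP (-2.30, SE 0.499, adjusted p = 0.00151), and in batch 2 alone the value was -2.12 with an adjusted p of 0.105, over a range of 1.21e-05 to 0.105. It was lower in ONH IP than in ONP IP (-1.35, SE 0.341, adjusted p = 0.0214), and batch 1 alone gave -1.36 (adjusted p = 0.00843). A fit of all 26 libraries (-1.34, adjusted p = 0.106) and the omission of ONH IP replicate 1 (-1.27, adjusted p = 0.0558) did not call it, over a range of 0.000604 to 0.106. Against ONH IP retina IP had -0.95 (SE 0.518, adjusted p = 0.161), which was called without the batch term (-1.14, adjusted p = 0.0107, range over all alternatives 0.0107 to 0.612). Against input the value was -0.26 (SE 0.604, adjusted p = 0.865). The tenascins thus stood in opposite order along the nerve, Tnc higher and Tnr lower in ONH IP than in ONP IP. Oligodendrocyte marker sums were lower in ONH IP as well, with a median of 34600 CPM against 88800 CPM in ONP IP and overlapping ranges, and their part in the Tnr difference was not tested.

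A list of 52 partner genes covered enzymes, receptors, proteases and relatives of these members. In retina IP against input, 0 of 40 tested were called (11, or 27.5%, were higher and 0 lower at an unadjusted p under 0.05, which 22.1% of all genes reached in either direction, and DESeq2 called 7 higher beside 6.38% of all genes), with a median log2 fold change of 0.64 beside 0.02 over all genes. Against ONH IP, 3 of 44 (6.82%) were higher in retina IP and 13 (29.5%) lower, beside 12.7% and 21.1% of all genes, with a median of -0.34 beside -0.13. Against ONP IP it was again 3 and 13 of 44, beside 12.9% and 19.9% of all genes, with a median of -0.31 beside -0.10. In both comparisons the lower genes take in Itih2 and Hapln2, which passed the low-count filter through nerve libraries. The higher ones take in Hapln4, which passed it through the retina. These genes had to differ, and the list was chosen with earlier results of these data known, so the counts are a description. ONH IP against ONP IP had 0 higher and 1 lower (2.27%), beside 4.43% and 3.04% of all genes. By role, all 3 other chondroitin sulphate proteoglycans, Cspg4, Cspg5 and Ptprz1, were lower in retina IP in both comparisons. Of 15 enzymes that build or sulphate chondroitin chains, 1 was higher and 4 lower against ONH IP, and 0 higher and 3 lower against ONP IP. None of the 3 hyaluronan receptors or 4 hyaluronan-degrading genes tested was called in either. Cd44, the main hyaluronan receptor, averaged 41.6 ± 29.4 CPM in retina IP, 13.8 ± 5.92 in retina input, 72.2 ± 22.5 in ONH IP and 76.9 ± 27.9 in ONP IP.

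Adamts4, a protease that cuts brevican and aggrecan, shared with the heavy chains the gap between retina IP and nerve. It was at 0.196 to 3.19 CPM in retina IP against 67.5 to 277 CPM in ONH IP (-5.39, SE 0.557, adjusted p = 6.55e-07) and 153 to 456 CPM in ONP IP (-6.43, SE 0.561, adjusted p = 5.20e-08). Hapln2 had 27 counts in retina IP against 12085 in ONH IP (-8.89, SE 0.765) and 22516 in ONP IP (-10.05, SE 0.765). It reached the low-count filter in 1 of 6 retina IP libraries and so entered the test through the nerve, as Hapln4 entered it through the retina with 6 retina IP libraries, 1 ONH IP library and 0 ONP IP libraries, which makes their fitted values a description. Tnxb, a tenascin of connective tissue, averaged 0.683 ± 0.633 CPM in retina IP against 33.2 ± 11.3 CPM in ONH IP (-5.27, SE 0.627, adjusted p = 4.15e-06). Higher in retina IP was Cntn1, a neuronal adhesion protein that binds tenascins, against ONH IP (3.05, SE 0.437, adjusted p = 3.34e-05) and ONP IP (2.09, SE 0.414, adjusted p = 0.000688). Hapln4 had fitted values of 5.19 (SE 1.43) and 5.52 (SE 1.62), and its p-values are not given as support. Cntn1 lost both calls in batch 2 alone (adjusted p = 0.0698 and 0.0903, the largest of all alternatives). The fitted values of Hapln4 moved with the bridging libraries, to 4.30 and 3.84 without ONP IP replicate 7. Without ONH IP replicate 7, which held 1.77 CPM where the other ONH IP libraries held 0.479 CPM or less, they were 12.88 and 12.42, values that depend on the prior count. Itga8, an integrin subunit, was higher against ONP IP (3.09, SE 0.853, adjusted p = 0.00886) and lost that call without ONH IP replicate 7 (2.51, adjusted p = 0.0946, range 0.000186 to 0.314). Chpf2, a chondroitin polymerising factor, was higher against ONH IP (1.23, SE 0.437, adjusted p = 0.0351) but lost the call in 8 alternatives (up to an adjusted p of 0.367).

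The genes most like each member were ranked by Pearson's r of log2 CPM over the 26 libraries among 9571 genes with a mean of at least 10 CPM, a description in which the 4 groups, batches and depths are shared. Bcan was nearest to Cyfip1 (0.964) and Psd2 (0.963), and Vcan to Aspa (0.961) and Otud7b (0.959). Tnr was nearest to Tmem151a and B3gnt9 (both 0.957), Itih3 to Dlx4 (0.997) and Sap30bpos (0.991), and Itih5 to Prr5l (0.981) and Prr18 (0.971). Hapln1 was nearest to Nkrf (0.931) and Prrt3 (0.920). The values were lower for Ncan, with Tmem62 (0.847) and B3galt5 (0.823), for Has2, with Igsf9b (0.828) and Ptprd (0.823), and for Tnc, with Nab2 (0.798) and Samd14 (0.793). Acan was below the filter and was not ranked.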

How the data were processed

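RNA was sequenced from 26 libraries. Per the labels' protocols, cDNA was made from poly(A) RNA with a Smart-Seq kit for very low input. Salmon 1.6.0 and the mm10 build are named, per the submitters' processing notes. The values the authors deposited are estimated counts per gene, which were rounded to whole numbers here. Of 54532 Ensembl ids, 54495 matched a symbol in GENCODE M21. No column was left without a sample (0 unused). Estimated counts can shift reads between overlapping genes.

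Groups and batch came from the labels. The members and the lists of partner and marker genes were chosen with earlier results of these data known. Named genes were the 10 members, per comparison up to 3 called partner genes per direction averaging 10 CPM or more in the group where they were higher, the 2 genes most like each member, and markers a result turns on. Chondroitin proteoglycans, Cd44, Hapln3, Has1, Has3, Itih1 and Itih4 were named as family or receptor genes.

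Tests used R 4.3.3 and edgeR 4.0.16 (TMM, filterByExpr with a minimum count of 10 and total of 15, glmQLFit and glmQLFTest, Benjamini-Hochberg at 0.05). SE is the absolute log2 fold change over the root of F. Retina IP against input used 12 libraries; the comparisons between regions used all 20 IP libraries with a batch term. CPM used TMM sizes over 26 libraries, with 17173 genes kept, and lengths are merged exons. Poisson intervals are at 95% and cover counting error only. Depth was 11164619 to 27431026 counts. The tests were tested on simulated data. No 2 libraries were identical. Alternatives were DESeq2 1.42.0, RLE size factors, other fits, single batches and the omission of each library. Figures used matplotlib 3.10.9. Promoters came from RefSeq tables (GRCm38.p6).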

Additional observations from a re-analysis of the deposited data

Results flagged for a closer look

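For 5 genes, 1 library stood apart from the others of its group, with a gap to the nearest library that was large against the group's whole range. All 10 genes were checked in each of the 4 groups in which more than 1 library held counts. Chance marks about 1 in 20 groups of normally distributed values in this way, so some of these flags may be chance. That rate does not carry over to Has2, Acan and Hapln1, whose flagged values rest on few counts. Vcan was at 5.09 CPM in retina IP replicate 3, where the next library held 1.96 CPM and the lowest 0.777 CPM. Has2 was at 0.209 CPM in retina IP replicate 2, against 0.0648 CPM in the next. In ONH IP, Acan was at 0.38 CPM in replicate 3 (the next at 0.0957 CPM), and Hapln1 was at 0.363 CPM in replicate 7, the bridging library (the next at 0.0547 CPM). Tnr was at 63.4 CPM in ONP IP replicate 4, with the next library at 46.8 CPM and the lowest at 37.5 CPM.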

How the results depend on the processing

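Over 44 gene-by-comparison results and 1138 values under alternatives, 1071 kept direction and side of the threshold, 29 lost a call, 27 gained one and 11 turned sign. In retina IP against input, 1 member (Bcan) was called without the low-count filter, by DESeq2 and with all 26 libraries in 1 fit, and 0 to 1 when single libraries were left out. Against ONH IP, 2 to 4 members were called with single libraries left out; against ONP IP, 5 to 6, and 3 in batch 2 alone. Between ONH IP and ONP IP, DESeq2 called 5 of 8 members, beside 1150 higher and 891 lower of 16355 genes. A fit of only the 2 groups called 5 of 7, beside 1133 higher and 1161 lower of 14799 genes, and single omissions called 2 to 4. Replicate numbers did not meet the rule for pairing, an r over 0.1 in every pair. Between same-numbered ONH and ONP libraries r was 0.06 to 0.41, with 5 of 6 over 0.1 and 6 of 6 highest with their own number. In the retina r was -0.10 to 0.23, with 4 of 6 over 0.1 and 5 of 6 highest. This is a hint of shared origin from the data and not from the labels. With the replicate block 6 of 7 members were called between ONH IP and ONP IP, beside 1481 higher and 1637 lower of 14799 genes. In retina IP against input the block called 0 members, as for all genes (0). Signs turned against input for Tnc (-0.04) and Itih5 (-0.4) without both input libraries 1 and 2, an alternative chosen after seeing the data, for Itih5 with single omissions (-0.21 to 0.60) and for Tnr (-0.57 to 0.21). Against ONH IP, Bcan turned to -0.83 (replicate block without the batch term) and -0.63 (no batch term), and Ncan to -0.12 and -0.14. The cause was not tested. Retinal libraries share a batch with 1 library of each nerve region, so the batch term rests on those 2 libraries.

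Over all genes, retina IP against input had 0 calls, but 969 higher and 1103 lower by DESeq2, 1419 and 1452 with all 26 libraries, 152 and 41 without the filter, and 341 and 40 without retina IP replicate 1. Against ONH IP the counts were 2080 higher and 3452 lower, with 437 and 1632 for only the 2 groups, 125 and 646 in batch 2, 3871 and 4594 without the batch term and 722 and 2262 without ONP IP replicate 7. Against ONP IP they were 2116 and 3255, with 790 and 910 in batch 2, 4225 and 4626 without the batch term and 567 and 1588 without ONP IP replicate 7. ONH IP against ONP IP had 725 and 498, with 385 and 126 for all 26 libraries, 1133 and 1161 for only the 2 groups, 1264 and 1181 in batch 1 and 1481 and 1637 with the replicate block. At this depth Acan, Has2 and Hapln1 lie near the limit of detection in several groups.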
